A study of Mus musculus with 48 samples.

Results

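The transcripts of 10 genes for enzymes that modify and crosslink collagen were followed in 48 RNA-seq libraries: the lysyl oxidases Lox, Loxl1, Loxl2 and Loxl3, the prolyl 4-hydroxylase alpha subunits P4ha1, P4ha2 and P4ha3, and the lysyl hydroxylases Plod1, Plod2 and Plod3. They were chosen by gene symbol from the 54752 Ensembl genes of the deposited matrix, and all 10 were found and passed the filter on low values in every fit. Of these libraries, 12 each were made from heart LECs and diaphragm LECs (lymphatic endothelium), from heart BECs (blood endothelium) and from cardiomyocytes. All animals were C57BL/6 mice carrying Prox1-eGFP, a knock-in in which the endogenous Prox1 gene drives eGFP, with ages between 8 and 16 months by the labels, where the study's methods state weeks. Each population had 4 libraries from ctrl mice, which received carrier protein, 5 from mice given angiotensin II (angII) by minipump, and 3 from mice given VEGFCc156s at the same time (angII+VEGFC), a form of VEGFC selective for the lymphatic receptor. Tissue was taken 5 to 6 weeks after pump implantation. The populations of a mouse share its number, 13 mice in all, with the diaphragm LECs of mouse 12 replaced by those of mouse 4.

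Collagen chains are modified in the endoplasmic reticulum before they fold. Prolyl 4-hydroxylase, a complex of a P4ha alpha subunit and the P4hb protein, hydroxylates proline and so lets the triple helix hold at body temperature. The Plod enzymes hydroxylate lysine. Outside the cell the lysyl oxidases oxidise lysine and hydroxylysine side chains, which then join into the crosslinks that stiffen collagen and elastin fibres, and in the pressure-loaded heart these enzymes are known above all from fibroblasts. P4ha1, P4ha2, Plod2 and Lox are also textbook targets of the hypoxia-inducible factors.

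LECs and BECs were sorted as live CD31+ CD45.2- cells, eGFP+ for LECs and eGFP- for BECs, while cardiomyocytes were pelleted from digested hearts and not sorted. The lymphatic marker Prox1 was at 97.6 to 315 TPM in the LEC libraries and at most 6.18 TPM in the others, and the cardiomyocyte gene Myh6 was at 1004 to 3914 TPM in cardiomyocytes and at most 78.5 TPM elsewhere. Prox1 drives the eGFP used for the sort, so its level is no separate measure of purity. A group of 6 BEC markers (Nos3, Aqp1, Cd36, Gpihbp1, Fabp4 and Emcn) summed to 2492 to 8702 TPM in heart LECs. The same sum was 2022 to 2818 TPM in diaphragm LECs and 13669 to 21163 TPM in heart BECs. Levels are in TPM (transcripts of a gene relative to all those in the library, corrected for gene length), which allows genes to be set side by side but keeps no read depth. A group of 8 fibroblast markers (Pdgfra, Dcn, Lum, Tcf21, Dpt, Mfap5, Pi16 and Gsn) summed to 6965 to 12047 TPM in the cardiomyocyte libraries, so these hold fibroblast transcripts in quantity. In heart BECs the fibroblast sum was 13382 TPM in the ctrl library of mouse 1, 7446 TPM in the angII library of mouse 3 and 8383 TPM in the angII+VEGFC library of mouse 2, and 1149 to 2128 TPM in the other 9. The cardiomyocyte angII+VEGFC library of mouse 8 also stood apart, with 19306 genes at 1 TPM or more against 13020 to 15816 in the other 11. Calls of members that rest on these libraries are given with and without them. Family shares, nearest genes and the other gene lists were not recomputed without them.

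The promoters of the P4ha genes are shown because, as described further on, P4ha1 and P4ha2 varied together from mouse to mouse and P4ha3 was the member called under angiotensin II. Each runs from 250 bases before to 50 bases after the RefSeq transcript start in GRCm38.p6. RefSeq promoters were used for 5 of the 10 members (P4ha1, P4ha2, P4ha3, Plod1 and Plod3). Capitals mark the core of the hypoxia response element, searched as ACGTG or GCGTG on both strands (CACGT or CACGC where it lies on the other strand). P4ha1, at chr10:59323046-59323345 on the plus strand, held 3 matches, P4ha2, at chr11:54100674-54100973 on the plus strand, 4, and P4ha3, at chr7:100285270-100285569 on the plus strand, 0.
P4ha1: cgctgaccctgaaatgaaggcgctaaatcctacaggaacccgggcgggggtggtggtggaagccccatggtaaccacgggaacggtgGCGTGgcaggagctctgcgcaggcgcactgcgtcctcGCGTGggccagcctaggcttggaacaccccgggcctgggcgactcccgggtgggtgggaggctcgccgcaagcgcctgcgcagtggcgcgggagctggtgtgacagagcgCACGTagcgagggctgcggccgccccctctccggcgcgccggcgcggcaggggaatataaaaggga
P4ha2: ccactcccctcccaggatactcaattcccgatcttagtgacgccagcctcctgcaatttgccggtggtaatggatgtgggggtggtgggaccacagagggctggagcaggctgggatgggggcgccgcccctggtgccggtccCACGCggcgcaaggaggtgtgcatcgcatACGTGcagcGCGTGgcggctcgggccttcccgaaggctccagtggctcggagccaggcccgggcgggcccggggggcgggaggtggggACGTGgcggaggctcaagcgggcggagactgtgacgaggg
P4ha3: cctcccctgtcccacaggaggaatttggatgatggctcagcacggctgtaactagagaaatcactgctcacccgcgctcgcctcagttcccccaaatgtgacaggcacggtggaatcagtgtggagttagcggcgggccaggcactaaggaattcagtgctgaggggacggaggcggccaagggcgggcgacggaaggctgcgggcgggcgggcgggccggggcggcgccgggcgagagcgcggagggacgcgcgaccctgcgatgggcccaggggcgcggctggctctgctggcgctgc
Plod1 held 2 matches and Plod3 4. At least 1 match was found in 43.77% of 32851 promoters of this length, and 3 or more in 8.93%.

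In cardiomyocytes P4ha3, an alpha subunit scarce in most tissues, rose under angiotensin II. The other 9 members had fold changes above 0, as 68.3% of all genes did, and did not pass the test. P4ha3 was at 1.47, 1.05, 0.451 and 0.377 TPM in the ctrl libraries, at 4.35, 2.99, 3.25, 3.43 and 4.58 TPM in the angII libraries and at 4.55, 6.15 and 3.39 TPM in the angII+VEGFC libraries. Every treated library lay above every ctrl library. The log2 fold change of P4ha3, fitted on log2(TPM + 1) with age as a covariate, was 1.45 for angII against ctrl (SE 0.23, limma adjusted p = 0.042) and 1.56 for angII+VEGFC against ctrl (SE 0.27, limma adjusted p = 0.0264). Both comparisons share the ctrl libraries. P4ha3 (ENSMUSG00000051048) lies on the plus strand of chromosome 7 in GRCm38, from 100285520 to 100319699. Its adjusted p was close to the threshold: for angII against ctrl the call was lost in 9 of 12 fits without 1 library (each of the 4 ctrl libraries, the angII libraries of mice 3, 12, 15 and 18, or the angII+VEGFC library of mouse 2), with adjusted p of 0.0559 to 0.194, and for angII+VEGFC against ctrl in 6 of 12 (each ctrl library, or those of mice 2 and 6), with adjusted p of 0.0505 to 0.189. Over these fits its fold change stayed between 1.36 and 1.56 and between 1.40 and 1.78.

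The lysyl oxidases were compared in the same libraries. Lox, which crosslinks collagen and elastin, was at 16.6, 11.3, 10.9 and 12.4 TPM in ctrl, at 38.9, 28.4, 47.3, 77.4 and 60.9 TPM with angII, and at 99.0, 97.8 and 13.3 TPM with angII+VEGFC. All angII libraries were above all ctrl libraries, and of the angII+VEGFC libraries that of mouse 8 was within the ctrl range. The log2 fold change of Lox was 1.78 for angII against ctrl (SE 0.47, limma adjusted p = 0.158). Loxl1, a partner of elastic fibres, was at 30.8, 22.3, 23.4 and 24.1 TPM in ctrl, 61.5, 48.9, 49.97, 58.6 and 89.7 TPM with angII and 92.3, 92.6 and 29.6 TPM with angII+VEGFC. Its log2 fold change with angII was 1.2 (SE 0.30, limma adjusted p = 0.139). Loxl3 was at 12.5, 8.18, 7.36 and 10.1 TPM in ctrl, at 30.2, 22.0, 23.0, 27.9 and 50.7 TPM with angII and at 64.6, 53.4 and 11.4 TPM with angII+VEGFC. The same library was again the low one of its group, and the log2 fold change of Loxl3 with angII was 1.49 (SE 0.40, limma adjusted p = 0.163). Loxl2 overlapped between groups, at 14.4 to 30.2 TPM in ctrl and 29.7 to 47.1 TPM with angII (log2 fold change 0.87, SE 0.33, limma adjusted p = 0.380).

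Among the lysyl hydroxylases, Plod2, which hydroxylates the telopeptide lysines of collagen, was at 10.4, 8.67, 5.67 and 8.18 TPM in ctrl, 14.0, 16.9, 15.1, 21.4 and 23.4 TPM with angII and 34.9, 23.7 and 9.63 TPM with angII+VEGFC. Its log2 fold change with angII was 1.00 (SE 0.30, limma adjusted p = 0.210), the ctrl and angII groups not overlapping. Plod3 and Plod1 did not overlap either: Plod3 was at 19.3 to 25.8 TPM in ctrl and 31.3 to 40.8 TPM with angII, and Plod1 at 58.6 to 65.8 and 72.6 to 93.7 TPM, with log2 fold changes of 0.68 and 0.46 (limma adjusted p = 0.377 and 0.395). P4ha1 and P4ha2 overlapped between the groups, with log2 fold changes of 0.75 and 0.37 (limma adjusted p = 0.387 and 0.672).

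Counted over the 10 members, 1 was called at an adjusted p under 0.05 for angII against ctrl in cardiomyocytes, where 0.0892% of 15691 genes were called, and 9 had an unadjusted p under 0.05, where 9.85% of genes did. In 7 of the 10 every angII library was above every ctrl library, against 5.1% of all genes. The median log2 fold change of the members was 0.94 and that of all genes 0.12. For angII+VEGFC against ctrl, 1 member was called (0.663% of genes) and 8 had an unadjusted p under 0.05 (12.9% of genes), with a median of 1.22 against 0.11. P4ha3 was the only member whose angII+VEGFC libraries were all above ctrl, against 9.19% of genes. Between angII+VEGFC and angII, 0 members and 0% of genes were called, and without the library of mouse 8 also 0 members and 0 genes. With that library in, 0 members had an unadjusted p under 0.05 (2.41% of genes), and the 95% intervals of this difference were wide. They ran from -0.90 to 1.40 log2 units for Lox and from -0.46 to 0.68 for P4ha3. In these unsorted pellets, as in the sorted cells, fewer cells of a type and less RNA per cell cannot be told apart.

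**Figure D1:**
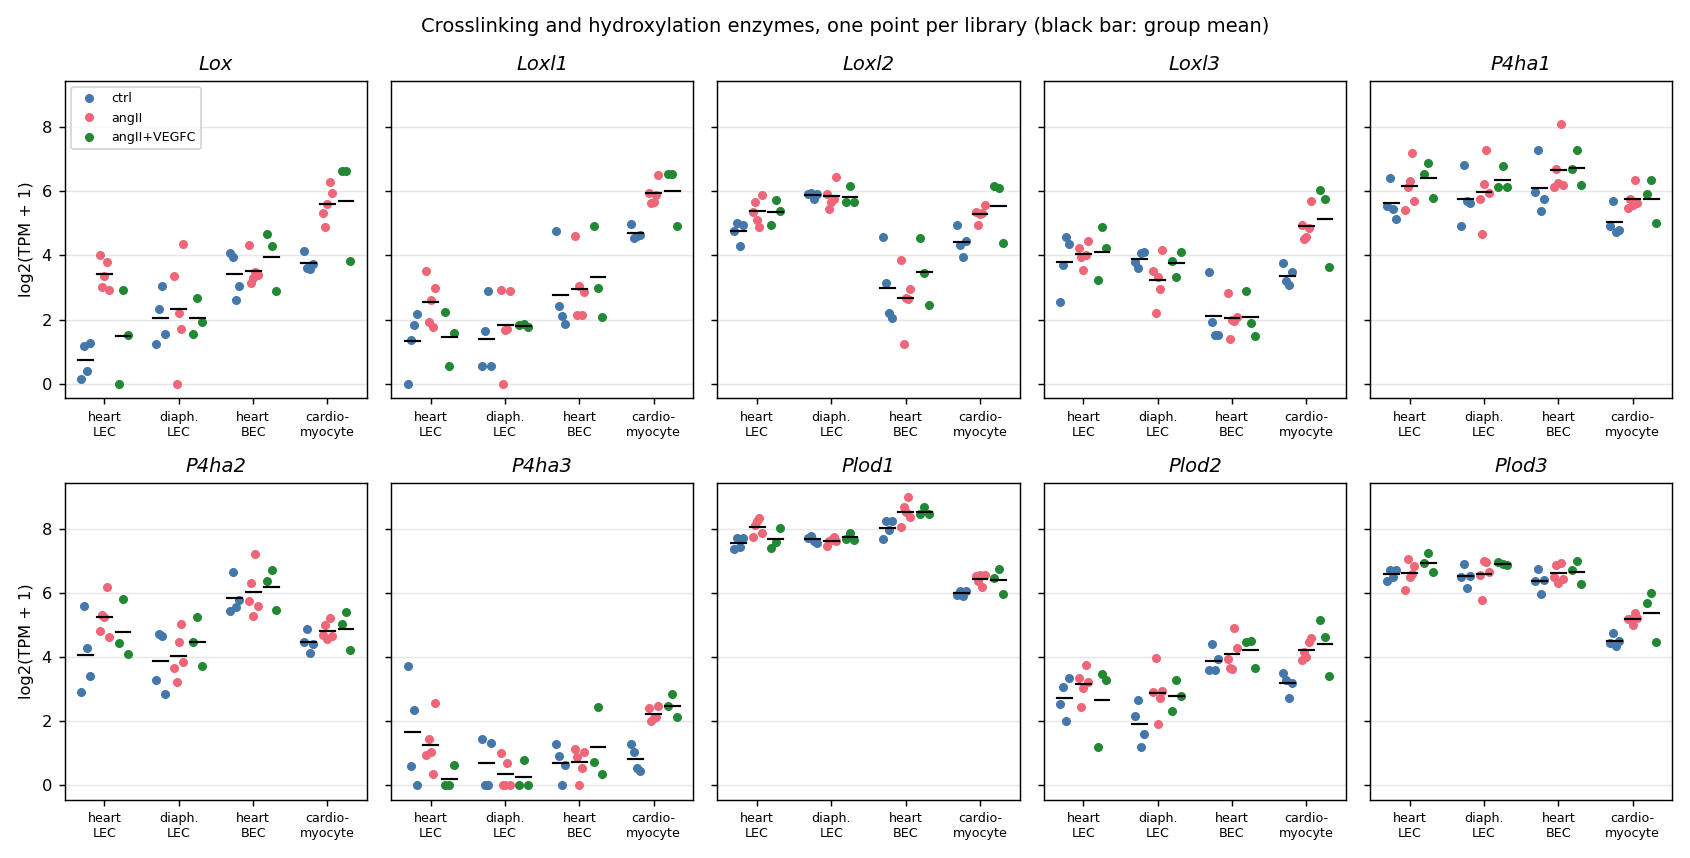
Level of each of the 10 genes in the 48 libraries, in TPM on a log2(TPM + 1) axis, by population and treatment. Each point is 1 library. In cardiomyocytes the angII libraries sit above the ctrl libraries for Lox, Loxl1, Loxl3, P4ha3, Plod1, Plod2 and Plod3.

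The counts in cardiomyocytes turned on the library of mouse 8. Without it, 7 members were called for angII against ctrl and 8 for angII+VEGFC against ctrl, and the genes called went from 14 to 314 and from 104 to 852. The called members for angII against ctrl were then Lox (1.84, limma adjusted p = 0.00254), Loxl1 (1.24, adjusted p = 0.0049), Loxl2 (0.91, adjusted p = 0.0277), Loxl3 (1.55, adjusted p = 0.00551), P4ha3 (1.47, adjusted p = 0.00302), Plod2 (1.04, adjusted p = 0.0246) and Plod3 (0.72, adjusted p = 0.0218), and the remaining pair of angII+VEGFC libraries gave Lox a log2 fold change of 2.86 over ctrl (limma adjusted p = 4.09e-04). With any other single library left out, the count was 0 or 1 for both comparisons. The collagens and elastic fibre genes that these enzymes act on, a list of 16, summed to 1192 TPM in the library of mouse 8, beside 4555 and 5026 TPM in the other angII+VEGFC libraries and 1111 to 1789 TPM in ctrl. P4ha3 was the member that did not follow: at 3.39 TPM the library of mouse 8 stayed above all ctrl libraries.

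**Figure D2:**
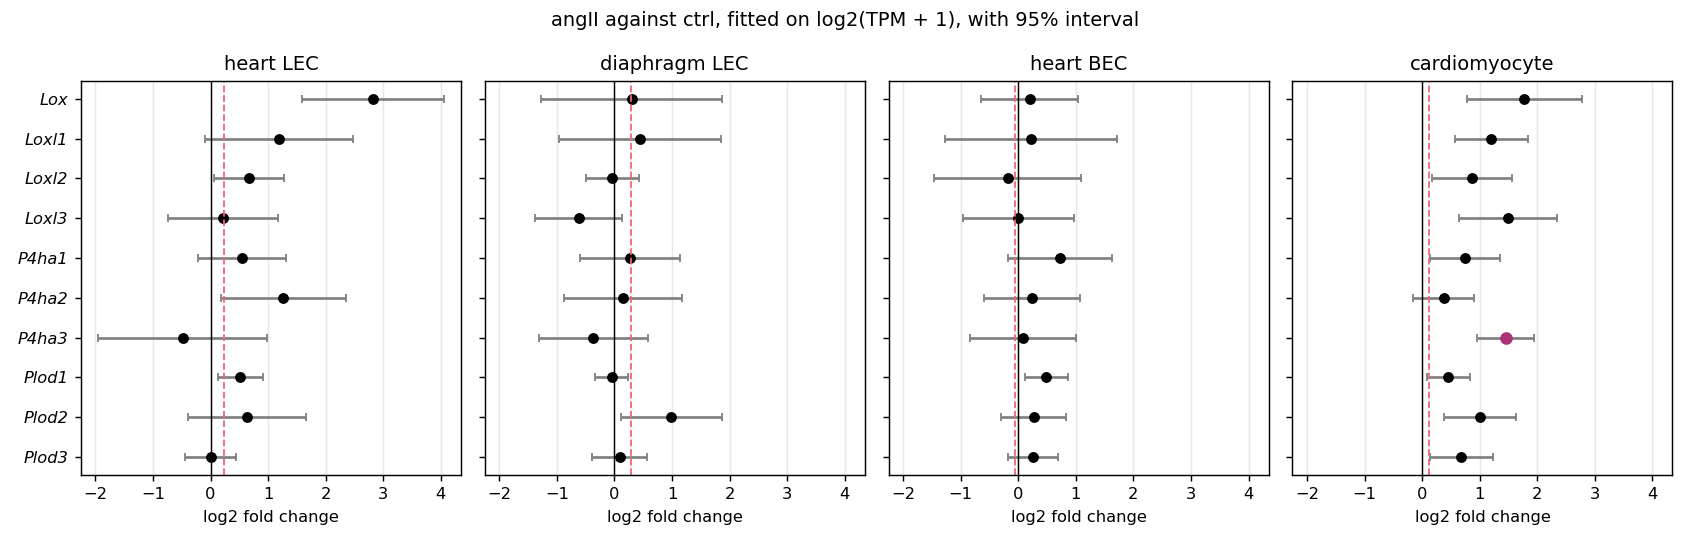
Log2 fold change of the 10 genes for angII against ctrl in each population, with 95% confidence intervals from limma, on log2(TPM + 1) values. The dashed line is the median of all genes tested and the purple point, P4ha3 in cardiomyocytes at 1.45, the one with an adjusted p under 0.05.

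The rest of the collagen pathway was examined in the same cardiomyocyte libraries. Of 26 further genes of collagen folding, secretion and processing, 24 could be tested for angII against ctrl. Of all genes in this comparison, 68.3% had a fold change above 0, 9.85% an unadjusted limma p under 0.05, and 0.0892% were called. The lists were chosen with earlier results of these data known. Of the 24, 22 had a fold change above 0 and 11 an unadjusted p under 0.05, their median was 0.57, and 0 were called. All 16 substrate genes were above 0, with a median of 0.85, 9 at an unadjusted p under 0.05 and 0 called. Of 9 genes put on a list for TGF-beta, 9 were above 0 and 2 were called. These were the collagen-associated Cthrc1 at 3.07 (SE 0.50, limma adjusted p = 0.042) and the matricellular Ccn5 at 2.52 (SE 0.29, limma adjusted p = 0.00513). A response to TGF-beta itself was not tested. Among 15 hypoxia-responsive genes the median was 0.01, 10 were above 0 and 0 had an unadjusted p under 0.05. In angII+VEGFC against ctrl the corresponding medians were 0.58 for folding and processing, where Sparc, a collagen chaperone, was called at 1.38 (SE 0.27, limma adjusted p = 0.0386), 0.91 for the substrates, 1.58 for the TGF-beta list with Cthrc1 and Ccn5 called, and -0.03 for the hypoxia list. In this second comparison 0.663% of all genes were called. Markers of other cell types were compared in the same libraries. The sum of 8 fibroblast markers was 6965 to 9031 TPM in ctrl, 7219 to 12047 TPM with angII and 8410 to 11229 TPM with angII+VEGFC, with 7 of 8 above 0 and Mfap5 called for angII against ctrl (1.72, limma adjusted p = 0.046). The sum of 7 leukocyte markers was 415 to 548 TPM in ctrl and 580 to 1257 TPM with angII, and 5 of the 6 that could be tested had an unadjusted p under 0.05, while the cardiomyocyte markers had a median fold change of -0.12. The part of these cells in the enzyme differences was not tested.

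In heart LECs the member that stood out under angiotensin II was Lox, although it missed the threshold. Lox was at 0.109, 1.26, 0.319 and 1.41 TPM in the ctrl libraries, at 15.1, 7.15, 9.22, 12.7 and 6.65 TPM with angII, and at 0, 6.61 and 1.89 TPM with angII+VEGFC. The angII libraries were all above the ctrl libraries and all above the angII+VEGFC libraries. Mean Lox was 0.776 ± 0.657 TPM in ctrl (SD, n = 4) against 10.2 ± 3.65 TPM under angII (SD, n = 5). The fitted log2 difference was 2.82 (SE 0.58), with a limma adjusted p of 0.114 that ran from 0.0586 to 0.361 over 18 alternatives. It was 3.19 in sequencing batch 1 (3 libraries against 2) and 2.13 in batch 2 (2 against 2). From angII to angII+VEGFC Lox changed by -2.29 (SE 0.69, limma adjusted p = 0.413, 0.173 to 0.831 over 18 alternatives), with -2.59 in batch 2 and -0.53 in batch 1, where angII+VEGFC has 1 library. Both comparisons use the same angII libraries. Lox (ENSMUSG00000024529) lies on the minus strand of chromosome 18 from 52516067 to 52529867 in GRCm38.

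Lox was accompanied in heart LECs by Plod1, the most abundant lysyl hydroxylase, at 164 to 212 TPM in ctrl and 213 to 321 TPM with angII, groups that did not overlap (log2 fold change 0.52, SE 0.19, limma adjusted p = 0.346). P4ha2 and Loxl2 overlapped, with 1.26 (limma adjusted p = 0.395) and 0.66 (limma adjusted p = 0.420). These 4 of the 10 members had an unadjusted p under 0.05 for angII against ctrl, where 10.9% of 26803 genes did and 0.0261% were called, and 0 members were called. Every angII library was above every ctrl library in 2 members and in 2.13% of genes. For angII+VEGFC against angII only Lox had an unadjusted p under 0.05 (10.8% of genes, with 0% called) and only Lox had groups that did not overlap (7.33% of genes lower throughout), and for angII+VEGFC against ctrl 0 members did (4.94%, 0% called). The median of the members for angII against ctrl was 0.59 and that of all genes 0.23, and 67.2% of all genes had a fold change above 0. Among the substrates, Col1a2 was called at 2.84 (SE 0.42, limma adjusted p = 0.0293) and 15 of 16 were above 0, with a median of 1.14. Ccn5 of the TGF-beta list was called at 3.50 (SE 0.52, limma adjusted p = 0.0293), and of 25 folding and processing genes 16 were above 0 with a median of 0.23. Markers of other cells differed between the same libraries: the fibroblast sum was 1185 to 2673 TPM with angII and 959 to 1977 TPM in ctrl, with 6 of 8 at an unadjusted p under 0.05, the sum of 6 BEC markers was 3871 to 8702 TPM and 2492 to 3950 TPM, the sum of 8 mural cell markers was 119 to 862 TPM and 46.8 to 392 TPM, the sum of 6 cardiomyocyte markers was 160 to 962 TPM and 135 to 384 TPM, and genes at 1 TPM or more numbered 19957 to 25896 and 16131 to 24086. The mural list had 8 of 8 markers above 0 (median log2 fold change 1.59, 3 at an unadjusted p under 0.05) and the cardiomyocyte list 6 of 6 (median 1.03, 2 at that level), beside medians of 0.89 for the fibroblast and 0.66 for the BEC list. The part of these cells in the Lox difference was not tested.

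Lox did not show such a difference in the other endothelial populations. In heart BECs it was at 15.9, 14.5, 5.14 and 7.18 TPM in ctrl and at 19.0, 7.74, 8.87, 10.3 and 9.40 TPM with angII (log2 fold change 0.20, limma adjusted p = 0.982), and in diaphragm LECs at 1.35, 3.99, 7.28 and 1.95 TPM in ctrl and at 9.16, 0, 3.6, 2.29 and 19.3 TPM with angII (0.30, limma adjusted p = 0.853). The difference of the fold changes, tested as an interaction over 36 endothelial libraries, was 2.57 between heart LECs and heart BECs (SE 0.85, limma adjusted p = 0.507, unadjusted 0.00488) and 2.44 between heart and diaphragm LECs (SE 0.85, limma adjusted p = 0.383, unadjusted 0.00735), so it was not shown to differ between populations at the adjusted threshold. No member, 0 of 10, was called in any of the 6 interaction comparisons by limma. At an unadjusted p under 0.05, for angII against ctrl, there was 1 member for heart LECs against BECs (7.19% of 32754 genes, 0% called), 1 for diaphragm LECs against BECs (11% of genes, 0% called) and 2 for heart against diaphragm LECs (9.7% of genes, 0.00611% called). For angII+VEGFC against angII there were 1 (6.43%, 0% called), 0 (7%, 0% called) and 1 (4.88%, 0% called).

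In heart BECs 0 members were called in any comparison, with 0% of genes called. Plod1 alone had an unadjusted p under 0.05, at 204 to 306 TPM in ctrl, 269 to 509 TPM with angII and 350 to 411 TPM with angII+VEGFC. The log2 fold change of Plod1 was 0.48 for angII against ctrl (limma adjusted p = 0.838) and 0.50 for angII+VEGFC against ctrl (limma adjusted p = 0.865), and its angII+VEGFC libraries were all above ctrl, as in 2.55% of genes. The shares of all genes at an unadjusted p under 0.05 in heart BECs were 5.4% for angII against ctrl, 2.59% for angII+VEGFC against angII and 5.51% for angII+VEGFC against ctrl. In diaphragm LECs 0 members and 0% of 23839 genes were called. Plod2 had an unadjusted p under 0.05 for angII against ctrl, at 1.27 to 5.30 TPM and 2.75 to 14.6 TPM (0.99, SE 0.41, limma adjusted p = 0.307), where 15.3% of genes did, and 0 members did for angII+VEGFC against angII (8.78% of genes) or against ctrl (1.32%).

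More members were called between populations than between treatments, except between heart and diaphragm LECs, and so were more of all genes. Between treatments 0% to 0.663% of genes were called within a population, in fits of 12 libraries. In the fit of 48 libraries, 4.01% were called higher and 2.36% lower in heart than in diaphragm LECs. For heart LECs against cardiomyocytes these shares were 52.9% and 6.23%. The populations differed in which of the 4 lysyl oxidases ranked first. Among Lox, Loxl1, Loxl2 and Loxl3, LECs had most of Loxl2, which acts on the collagen IV of basement membranes. The remaining family gene, Loxl4, is no member and was left out of the shares. Loxl2 made up 60.7% ± 11.6 (SD, n = 12) of the summed TPM of these 4 genes in heart LECs and 75.9% ± 7.68 (SD, n = 12) in diaphragm LECs, and ranked first in 11 of 12 and 12 of 12 libraries. In heart BECs Lox led with 40.0% ± 9.97 (SD, n = 12), first in 9 of 12 libraries. Loxl1 was first in the other 3, which were those with high fibroblast sums. In cardiomyocyte libraries Loxl1 led with 34.7% ± 4.33 (SD, n = 12), first in 9 of 12. In the other families P4ha1 held 58.0% to 78.6% of the P4ha total and Plod1 62.6% to 75.1% of the Plod total, as means per population. Plod1 ranked first in all 48 libraries. P4ha1 ranked first in 12 of 12 libraries of heart LECs, diaphragm LECs and cardiomyocytes and in 10 of 12 of heart BECs, where P4ha2 was above it in ctrl mice 9 (46.0 against 40.6 TPM) and 11 (54.3 against 52.8 TPM).

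**Figure D3:**
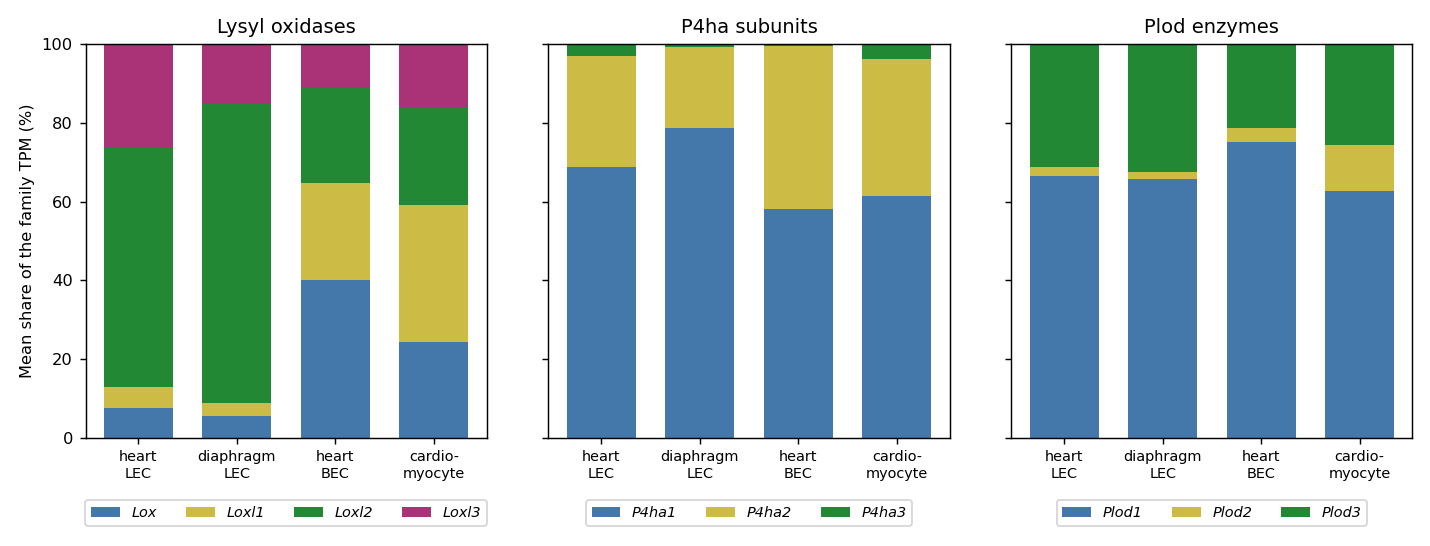
Share of each gene in the summed TPM of its enzyme family, in percent, by population (mean of 12 libraries). Loxl2 leads the lysyl oxidases in heart and diaphragm LECs with 60.7% and 75.9%, Lox in heart BECs and Loxl1 in cardiomyocytes, while P4ha1 and Plod1 have the highest mean share of their families in all 4. Loxl4 is not included.

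Lymphatic and blood endothelium of the heart divided the family between them. Loxl2 in heart LECs was at 26.2, 31.6, 18.7 and 29.7 TPM in ctrl, 39.5, 50.3, 33.3, 28.4 and 58.7 TPM with angII and 29.6, 51.8 and 40.5 TPM with angII+VEGFC. In heart BECs it was at 22.9, 7.85, 3.64 and 3.16 TPM in ctrl, 13.7, 1.34, 5.38, 5.23 and 6.73 TPM with angII and 22.5, 9.92 and 4.45 TPM with angII+VEGFC, below the LECs of the same heart in 12 of 12 mice. The log2 difference averaged over treatments was 2.11 (SE 0.25, limma adjusted p = 7.82e-09). Loxl3 was also higher in heart LECs, at 16.0 ± 6.58 against 3.69 ± 2.56 TPM (SD, n = 12 each), by 1.90 (SE 0.27, limma adjusted p = 3.77e-07) and in 11 of 12 mice. Loxl2 (ENSMUSG00000034205) lies on the plus strand of chromosome 14 from 69609068 to 69695834 and Loxl3 on that of chromosome 6 from 83034173 to 83052562, both in GRCm38.

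Heart BECs had more of 5 members than heart LECs. P4ha2, an alpha subunit that hydroxylates sites along the chain, was at 69.8 ± 33.6 TPM in BECs and 31.2 ± 19.8 TPM in LECs (SD, n = 12 each) and higher in the BECs of 12 of 12 mice, with a log2 difference, LECs minus BECs, of -1.33 (SE 0.29, limma adjusted p = 4.04e-04). Plod1 was at 339 ± 82.1 and 227 ± 52.4 TPM and Plod2 at 16.4 ± 5.75 and 7.17 ± 3.20 TPM (SD, n = 12 each), both higher in the BECs of 12 of 12 mice, by -0.60 (limma adjusted p = 3.51e-06) and -1.22 (limma adjusted p = 7.2e-05). Lox, at 12.3 ± 6.09 and 5.21 ± 5.19 TPM, differed by -1.75 (SE 0.37, limma adjusted p = 3.11e-04) and was higher in the BECs of 10 of 12 mice. P4ha1, P4ha3 and Plod3 were not called, with differences of -0.43 (95% interval -0.95 to 0.09), 0.18 (-0.42 to 0.78) and 0.17 (-0.12 to 0.46). This fit did not pair the libraries of a mouse. Within mice, P4ha1, P4ha3 and Plod3 were higher in the heart LECs of 2, 6 and 8 of 12. Thus 2 members were called higher in heart LECs, where 11.3% of 33308 genes were, and 5 lower, where 9.39% were. Diaphragm LECs differed from heart BECs in the same 7 members, with Loxl2 at 2.79 (SE 0.25, limma adjusted p = 3.13e-12) and Loxl3 at 1.56 higher (8.1% of genes), and Lox, Loxl1, P4ha2, Plod1 and Plod2 lower by -1.50, -1.32, -1.90, -0.69 and -1.56 (9.72% of genes), each with limma adjusted p of at most 0.00755. Not called there, P4ha1, P4ha3 and Plod3 were higher in the diaphragm LECs than in the heart BECs of 1, 3 and 10 of 11 mice. The comparisons of heart and of diaphragm LECs share the BEC libraries. Within ctrl libraries alone, 4 of the 7 were called for diaphragm LECs, where Lox, Loxl1 and Plod1 were not, and for heart LECs only Loxl1 lost its call (-1.44, limma adjusted p = 0.186).

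Of the other collagen genes, 8 of 25 folding and processing genes were higher and 6 lower in heart LECs than in heart BECs. The procollagen C-proteinase Tll1 (2.91) and the prolyl isomerase Fkbp10 (1.59) were higher, and Sparc (-2.52) and Pcolce (-2.58), the enhancer of C-propeptide removal, lower. Of the 16 substrates 2 were higher and 10 lower, with Col18a1 at 2.47 and the vessel-wall collagens Col15a1, Col4a2 and Col4a1 at -2.95, -1.97 and -1.68. In diaphragm LECs against heart BECs the counts were 8 higher and 5 lower, and 2 and 6 of the substrates. Of all genes, 11.3% were called higher and 9.39% lower in heart LECs, and 8.1% and 9.72% in diaphragm LECs. These lists were not refitted without the 3 heart BEC libraries with high fibroblast sums.

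Loxl1 is the member whose difference rested on few libraries. It was at 26.0, 23.2 and 29.1 TPM in the 3 heart BEC libraries with high fibroblast sums and at 2.60 to 7.29 TPM in the other 9, beside 3.45 ± 2.90 TPM (SD, n = 12) in heart LECs. The log2 difference, heart LECs minus heart BECs, was -1.24 (SE 0.37, limma adjusted p = 0.0134) with them and -0.61 (limma adjusted p = 0.210) without them, and for diaphragm LECs -1.32 and -0.69 (limma adjusted p = 0.00755 and 0.202). For heart LECs the call was also lost without mouse 1, 2 or 6 (adjusted p 0.0508 to 0.0824) and for diaphragm LECs without mouse 2 (0.0602). The same libraries had the 3 highest levels of Loxl2 among the BECs (22.9, 13.7 and 22.5 TPM) and of Loxl3 (10.1, 6.03 and 6.39 TPM). Lox was at 15.9, 19.0 and 24.3 TPM in them and at 5.14 to 18.8 TPM in the other 9. Loxl2 and Loxl3 were lower in BECs with these libraries in, and their calls were kept without them.

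**Figure D4:**
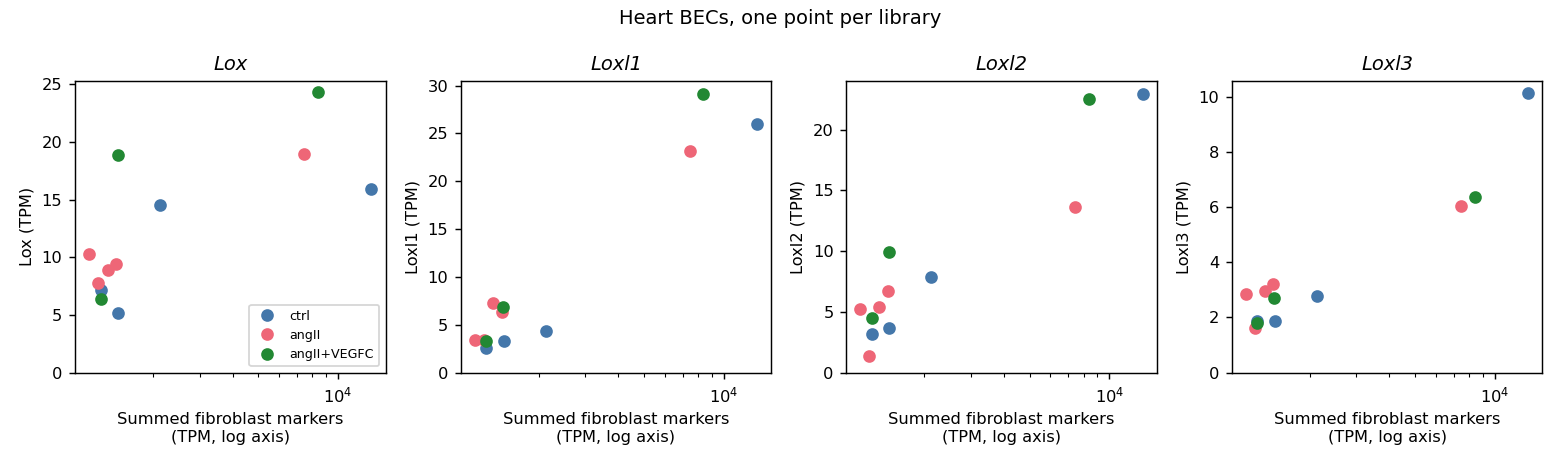
Level of the 4 lysyl oxidases against the summed level of 8 fibroblast markers in the 12 heart BEC libraries, 1 point per library, by treatment. Both are in TPM, the marker sum on a log axis and the enzyme level on a linear axis. The 3 libraries with sums of 7446 to 13382 TPM hold the 3 highest values of Loxl1, Loxl2 and Loxl3.

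Between heart and diaphragm LECs 0 members were called, with 4.01% of genes called higher and 2.36% lower in the heart, and 2 had an unadjusted p under 0.05 (20.7% of genes). They were Loxl2 and P4ha3. Loxl2 was higher in the diaphragm, at 57.9 ± 11.6 TPM (SD, n = 12) against 36.5 ± 11.9 TPM (SD, n = 12), and in 11 of 11 mice with both libraries. Its log2 difference, heart minus diaphragm, was -0.68 (SE 0.25, limma adjusted p = 0.104), and with the mouse as a replicate block, which compares the LECs of the same animal, -0.69 (limma adjusted p = 0.0492). Without the 3 heart BEC libraries, which enter through the shared spread, it was called too (adjusted p = 0.0299). P4ha3 was at 2.18 ± 3.51 and 0.464 ± 0.641 TPM (SD, n = 12 each), listed at 0 in 3 and 7 of the libraries, and differed by 0.63 (limma adjusted p = 0.214). Both LEC populations had P4ha1 at similar means, 71.7 and 71.5 TPM, with a difference of 0.05 (95% interval -0.47 to 0.57). Of the other collagen genes, Sparc was higher (1.96) and Fmod lower (-2.24) in heart LECs, 1 of 25 each way, and of the substrates Col18a1 was lower (-0.45).

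Cardiomyocyte libraries were isolated and sequenced apart from the endothelial cells, so cell type, isolation and sequencing cannot be told apart in the following differences. Lox and Loxl1 were at 42.9 ± 33.6 and 52.0 ± 27.4 TPM (SD, n = 12 each) in them, above the heart LECs in 12 of 12 mice, with log2 differences, LECs minus cardiomyocytes, of -3.13 and -3.73 (limma adjusted p = 1.25e-08 and 2.68e-10). Plod1 and Plod3 were lower in cardiomyocytes, at 78.3 ± 16.1 and 33.5 ± 13.3 TPM, below heart LECs in 12 of 12 mice by 1.42 and 1.62 log2 units (limma adjusted p = 4.43e-15 and 9.11e-12). Against heart LECs, 2 members were called higher in LECs (52.9% of genes) and 3 lower (6.23%), the third being Plod2 at -1.27. Within ctrl libraries alone Plod2 differed by -0.76 and was not called (limma adjusted p = 0.055). Against diaphragm LECs, 3 were higher in LECs (40.2% of genes), Loxl2, Plod1 and Plod3, and 5 lower (7.12%), Lox, Loxl1, Loxl3, P4ha3 and Plod2. With the mouse as a replicate block P4ha2 was also called there, at -0.50 (limma adjusted p = 0.0122) beside -0.66 (0.0781) without it, and with quantile normalization at -1.51 (0.00107).

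Against heart BECs, 4 members were higher in BECs than in cardiomyocytes (38.1% of genes), P4ha1, P4ha2, Plod1 and Plod3 at 0.75, 1.23, 2.03 and 1.46, and 5 were lower (5.96%), Lox, Loxl1, Loxl2, Loxl3 and P4ha3 at -1.38, -2.49, -2.06, -2.41 and -0.78. Several of these rested on the treated or on single libraries. Within ctrl libraries alone 3 of the 9 were called. Lox then differed by -0.49 (limma adjusted p = 0.404) and was higher in the BECs of ctrl mouse 5 (14.5 TPM) than in its cardiomyocytes (11.3 TPM), and Loxl1, Loxl3, P4ha1 and P4ha2 gave -1.75, -1.21, 0.74 and 1.17 (limma adjusted p = 0.0631 to 0.0872). P4ha3 had the opposite sign in both BECs (0.34) and diaphragm LECs (0.32) minus cardiomyocytes, as did Loxl3 in diaphragm LECs (0.58). With quantile normalization P4ha1 in BECs minus cardiomyocytes was -0.03, P4ha2 was 0.36 and no longer called (limma adjusted p = 0.541), and Loxl2 in diaphragm LECs minus cardiomyocytes -0.07. Leaving out 1 mouse ended the call of Loxl2 (mice 5, 6 and 8, adjusted p 0.0596 to 0.130) and Loxl3 (mice 2 and 6, 0.0504 to 0.101) in diaphragm LECs, and of P4ha1 (mice 6, 8 and 12, 0.0552 to 0.187) and P4ha3 (mice 2, 3, 8, 9, 12, 14, 15 and 18, 0.0556 to 0.137) in BECs. P4ha3 in BECs also lost its call without the 3 libraries with high fibroblast sums (-0.82, limma adjusted p = 0.0780).

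P4ha1 and P4ha2 varied from mouse to mouse alike in the 4 populations. P4ha1 in the angII mouse 15 reached 146 TPM for heart LECs, 155 TPM for diaphragm LECs, 273 TPM for heart BECs and 80.5 TPM for cardiomyocytes. In the angII+VEGFC mouse 6 it was at 118, 109, 155 and 81.5 TPM, and in the ctrl mouse 5 at 84.1, 113, 156 and 50.6 TPM, in the same order. In both diaphragm LECs and heart BECs these were the 3 highest of the 12 libraries, 1 animal from each treatment group, while in heart LECs mouse 2 (92.4 TPM) lay above mouse 5 and in cardiomyocytes mice 2 and 12 (59.6 and 53.4 TPM) did. P4ha2 in mice 15, 6 and 5 was at 72.6, 54.9 and 47.8 TPM in heart LECs, the 3 highest, and at 147, 105 and 100 TPM in heart BECs, again the 3 highest. By the labels mice 15 and 5 were in endothelial sequencing batch 2 and mouse 6 in batch 1, and the cardiomyocyte libraries were sequenced in a batch of their own.

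Correlated over mice between each pair of populations, on log2(TPM + 1), P4ha1 had Pearson's r of 0.800 to 0.907 and Spearman's rho of 0.800 to 0.936 (6 pairs of populations, 11 or 12 mice each), and r of 0.699 to 0.931 without the 2 mice farthest from the median. The mean r was 0.868, beside a median of 0.0929 over 7894 genes at 5 TPM or more, and 4 genes had a higher mean. Centred on the treatment groups, the mean r of P4ha1 was 0.837, with 9 genes above, and the 6 values ran from 0.729 to 0.901. Without the 2 farthest mice these centred values ran from 0.262, between diaphragm LECs and heart BECs, to 0.857, between heart BECs and cardiomyocytes, so within treatments part of the relation rests on those mice. P4ha2 had a mean r of 0.734, with 24 genes above, and Plod3 0.590, with 109 above, while Plod2, Loxl2 and Plod1 had 0.394, 0.319 and 0.30. These correlations are descriptions over the same animals, whose libraries share the day and handling of the mouse.

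**Figure D5:**
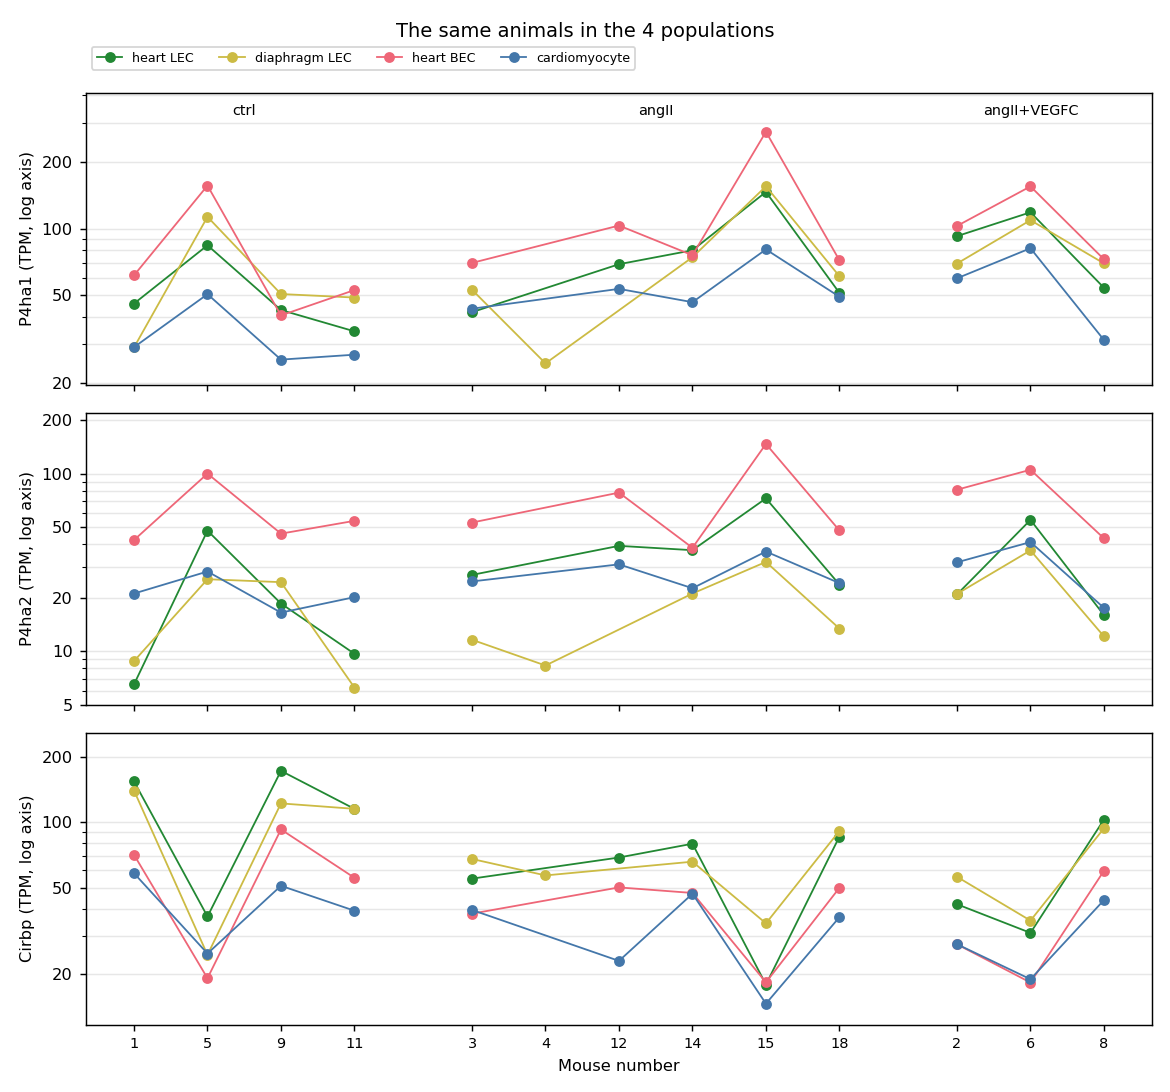
P4ha1, P4ha2 and Cirbp in the libraries of each mouse, in TPM on log axes, with 1 line per population joining the libraries of a treatment group to guide the eye. In heart BECs mice 15, 5 and 6 have the 3 highest values of P4ha1 (273, 156 and 155 TPM) and the 3 lowest of Cirbp (18.3, 19.1 and 18.3 TPM).

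The 4 genes with a higher mean r than P4ha1, named here after their values were seen, were the cold-inducible RNA-binding proteins Cirbp and Rbm3, the co-chaperone Stip1 and the endoplasmic reticulum stress gene Creld2. Within populations P4ha1 and Cirbp ran in opposite directions, with r of -0.856 for heart LECs, -0.692 for diaphragm LECs, -0.907 for heart BECs and -0.872 for cardiomyocytes (12 mice each), and -0.698, -0.889, -0.879 and -0.905 without the 2 farthest mice. Cirbp in heart LECs was at 17.9, 30.9 and 36.8 TPM in mice 15, 6 and 5 and had a median of 74.3 TPM over the 12. Stip1 ran with P4ha1, with r of 0.810, 0.927, 0.976 and 0.744 in the same order. Across the 36 endothelial libraries, each centred on its population, the genes nearest to P4ha1 were Stip1 (r = 0.91), the steroid receptor co-chaperone Fkbp4 (0.90) and the Hsp70-interacting St13 (0.89), out of 10875 genes, and those nearest to P4ha2 were the collagen chaperone Serpinh1 (0.85), S100a10 (0.82) and Stip1 (0.82). The hypoxia-responsive genes ran from -0.29 for Pfkfb3 to 0.63 for Ldha with P4ha1 over the same libraries.

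For the remaining members the nearest genes across the 36 centred endothelial libraries were matrix and vessel genes in part. They were Thbs1 (r = 0.85), Fgl2 (0.79) and Serping1 (0.79) for Loxl2, and Thbs2 (0.79), Serping1 (0.77) and Obsl1 (0.75) for Loxl3. For Lox they were Pi16 (0.77), Ifi211 (0.77) and Col16a1 (0.76). Pi16, a marker of adventitial fibroblasts, is on the list of fibroblast markers. Loxl1 ran with Gpm6b (0.90), Gsn (0.83) and Entpd2 (0.83), of which Gsn is also on that list. Plod1 was nearest to the sphingosine 1-phosphate receptor S1pr1 (0.77), Ifngr1 (0.74) and Tmem184b (0.72), Plod2 to Edem1 (0.78), Dbf4 (0.71) and Usp4 (0.71), and Plod3 to Hsd3b7 (0.79), Dnajc3 (0.79) and Anxa2 (0.78). P4ha3 stayed under 5 TPM on average in every population and was not compared. These values are descriptions over libraries that share animals and batches. They include the heart BEC libraries with high fibroblast sums and were not computed without them.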

How the data were processed

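Per the labels and the methods of the study, RNA (2 ng) was amplified with a Smart-Seq kit, and libraries were made with Nextera XT. The authors aligned reads with STAR 2.5.3a to GRCm38, quantified Ensembl genes with Salmon 0.12.0, and deposited TPM. Symbols and positions came from the Ensembl IDs and the reference annotation. Values were transformed to log2(TPM + 1), which understates the change of low genes. A gene entered a fit if 3 libraries or more reached 1 TPM. Models used limma 3.58.1 (R 4.3.3) with a variance trend, Benjamini-Hochberg adjustment over all genes and a threshold of 0.05. Covariates were age and batch, or age alone within cardiomyocytes. Populations were compared over 48 libraries, averaging treatments, and the interaction over 36. The authors used DESeq2 on counts, which were not used here. Because TPM keeps no depth, no counting error is given. The members and lists were chosen with earlier results of these data known. Named genes were all members, called list genes (up to 4 per list and fit) and the 3 nearest genes per member. The number of a mouse pairs the libraries of its populations by the labels. Same-mouse deviations correlated at 0.0652 on average (34 pairs, -0.137 to 0.250), against -0.0187 between mice (116 pairs). By the labels 1 animal gave 1 library per population. No library lay beyond 3 SD on either of the first components, with 2.86 SD the largest distance. Among 12 libraries, with an SD that includes the library itself, this limit can hardly be passed. The check therefore does not clear the libraries that stood apart. The fits were tested on simulated data. Alternatives follow in the closing part.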

Additional observations from a re-analysis of the deposited data

Results flagged for a closer look

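A library was marked where its gap to the nearest of its group was large against the range of the group (Dixon's test at 95%), which chance does in about 1 in 20 groups. This held for 9 of 80 groups of 4 or 5 libraries. In heart BECs, Lox with angII was 19.0 TPM in mouse 3 against 7.74 to 10.3 TPM in the others, Loxl1 with angII was 23.2 TPM in mouse 3 against 3.44 to 7.29 TPM, Loxl1 in ctrl was 26.0 TPM in mouse 1 against 2.60 to 4.32 TPM, and Loxl3 in ctrl was 10.1 TPM in mouse 1 against 1.86 to 2.77 TPM. Both libraries are among the 3 with high fibroblast sums. P4ha1 with angII was 273 TPM in the heart BECs of mouse 15 against 70.0 to 103 TPM, and 80.5 TPM in its cardiomyocytes against 43.5 to 53.4 TPM. P4ha1 in ctrl cardiomyocytes was 50.6 TPM in mouse 5 against 25.6 to 29.2 TPM. Loxl3 with angII was 50.7 TPM in the cardiomyocytes of mouse 18 against 22.0 to 30.2 TPM. Loxl2 in ctrl diaphragm LECs was lowest in mouse 9, at 52.7 TPM against 59.9 to 60.9 TPM. The causes were not tested.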

How the results depend on the processing

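The number of members called in cardiomyocytes depended on the setting. For angII against ctrl it was 1, and 0 with no filter on low values, 4 with 1 surrogate variable, 8 with a covariate for how many genes reached 1 TPM, and 0 to 7 when 1 library was left out. For angII+VEGFC against ctrl it was 1, and 0 with no filter, 3 with quantile normalization, 6 with the surrogate variable, 8 with the gene number and 0 to 8 when 1 library was left out. In the other 10 comparisons within a population it stayed at 0 when 1 library was left out. Between populations, with 1 mouse left out, the counts were 0 (heart against diaphragm LECs), 6 to 7 (heart LECs against BECs), 5 to 6 (heart LECs against cardiomyocytes), 6 to 7 (diaphragm LECs against BECs), 7 to 9 (diaphragm LECs against cardiomyocytes) and 7 to 9 (BECs against cardiomyocytes). Heart against diaphragm LECs gave 1 with the mouse as a replicate block (Loxl2) and 1 without the 3 heart BEC libraries, an alternative chosen after seeing the data. The block also added P4ha2 in diaphragm LECs against cardiomyocytes and changed no other call of a member. Quantile normalization gave 9 in heart LECs against cardiomyocytes (5 without it). Ctrl libraries alone gave 4 in diaphragm LECs against BECs and 3 in BECs against cardiomyocytes, fits with fewer libraries. Fold changes were followed over the alternatives only where the main fit gave an unadjusted limma p under 0.05. Among those, Loxl2 (-0.073) in diaphragm LECs and P4ha1 (-0.032) in BECs turned sign, both against cardiomyocytes with quantile normalization. In ctrl alone against cardiomyocytes, Loxl3 (0.58) and P4ha3 (0.32) in diaphragm LECs and P4ha3 (0.34) in BECs turned sign. The cause was not tested.

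Counts over all genes moved by over 1.5 times too. For angII against ctrl they were 0 to 31 in heart LECs (7), 0 to 520 in diaphragm LECs (0), 0 to 3 in heart BECs (0) and 0 to 473 in cardiomyocytes (14), and for angII+VEGFC against ctrl 0 to 12 in heart LECs (0), 0 to 1 in heart BECs (0) and 0 to 852 in cardiomyocytes (104). For angII+VEGFC against angII they were 0 to 2 in heart LECs (0) and 0 to 3 in diaphragm LECs (0). Between populations they were 767 to 2768 (2122), 3060 to 7993 (6892), 10419 to 20666 (19694), 3095 to 6395 (5934), 7981 to 16433 (15762) and 8666 to 15852 (14668) in the order above. The interactions gave 0 to 7 (2) for heart against diaphragm LECs with angII, and 0 to 3 (0) and 0 to 4 (0) with angII+VEGFC for heart and diaphragm LECs against BECs. The depth is unknown, and groups of 3 to 5 libraries limit the precision.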
